A study of Mus musculus with 96 samples.

Results

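The proteasome genes of mouse macrophage-like RAW 264.7 cells were followed through 4 h of exposure to lipopolysaccharide (LPS), interferon gamma (IFNG) or 2-methyl-thio-ATP (2MA), alone or with LPS. Members were all genes whose symbol on the array starts with Psma to Psmg followed by a number. The rule found 45 genes, on 53 probes, of 10698 named genes, and 40 of them (48 probes) had enough values to be tested. The 5 that did not were Psme1, Psme3, Psmb4, Psmb7 and Psmc3ip. The probe of Psme1, the alpha subunit of the PA28 activator, had no value on any of the 96 arrays. Psmb4 had a value on 58 arrays, Psmb7 on 61, Psme3 on 76 and Psmc3ip on 85. Psmc3ip is a cofactor of meiotic recombination that matches by symbol and is no proteasome subunit. Psmb5-ps, also matched by symbol, is a pseudogene of Psmb5, and its probe may read Psmb5 RNA. The symbol Psme2, the PA28 beta subunit, was not on the array. Its near-identical copy Psme2b was, so the values given as Psme2b may belong to Psme2, to Psme2b or to both.

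The values are log2 ratios of treated over untreated RNA on 2-colour arrays. LPS, the cell wall component of Gram-negative bacteria that is sensed by Toll-like receptor 4, was used at 100 ng (no volume is given) with 100 pM LPS-binding protein. IFNG, the macrophage-activating interferon made by T cells and natural killer cells, was used at 5 nM. 2MA, an analogue of ATP and agonist of purinergic P2 receptors, was used at 500 uM in the channel labels. The description of 1 array gives 500 nM instead. Treatments were LPS, IFNG, 2MA, LPS with IFNG (LPS+IFNG) and LPS with 2MA (LPS+2MA), each for 1, 2 and 4 h, and LPS also for 30 min. Each of the 16 treatment-time groups had 3 sets, with 1 array for each of the 2 dye orientations per set. A set value is the mean of both orientations, and n counts sets throughout. RAW 264.7 is 1 established line, transformed by a murine leukaemia virus, and stands in for primary macrophages. Nothing states that the sets were separate cultures, so p-values measure the spread between these sets, which may be technical. Treatments of 1 set and time may have been set against the same untreated RNA, which the labels do not state.

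The proteasome is the protease complex that degrades ubiquitin-tagged proteins in the cytosol and nucleus. Its barrel, the 20S core, has outer rings of alpha subunits (Psma genes) and inner rings of beta subunits (Psmb genes), of which Psmb5, Psmb6 and Psmb7 encode the catalytic ones. In cells exposed to interferon these are replaced in new particles by Psmb8 (LMP7), Psmb9 (LMP2) and Psmb10 (MECL-1), which gives the immunoproteasome, known for cutting peptides suited to MHC class I. The 19S cap, made of ATPases (Psmc genes) and non-ATPase subunits (Psmd genes), binds and unfolds tagged proteins. The PA28 cap of Psme1 and Psme2 is an alternative, interferon-inducible activator, and the Psmg genes encode chaperones of 20S assembly.

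The 250 bases before the start of the 3 immunoproteasome genes and of Psmb5 and Psmb6 are printed because these genes encode catalytic subunits that replace each other in the particle. Sequences are from RefSeq (GRCm38.p6), 5′ to 3′ on the gene's strand. Psmb8 lies at chr17:34197945-34198194 (plus strand), Psmb9 at chr17:34187331-34187580 (minus), Psmb10 at chr8:105938393-105938642 (minus), Psmb5 at chr14:54617996-54618245 (minus) and Psmb6 at chr11:70525107-70525356 (plus). Capitals mark matches on either strand to 4 motifs. They are the interferon-stimulated response element core (GAAA, any 2 bases, GAAA), the gamma-activated site (TTCNNNGAA), the NF-kB site core (GGG, any 5 bases, CC) and the antioxidant response element core (TGANNNNGC).
Psmb8: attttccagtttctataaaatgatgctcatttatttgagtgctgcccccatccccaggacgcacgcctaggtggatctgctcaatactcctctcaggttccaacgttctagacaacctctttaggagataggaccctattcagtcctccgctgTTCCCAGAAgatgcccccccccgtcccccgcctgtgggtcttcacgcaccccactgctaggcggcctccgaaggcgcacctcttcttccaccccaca
Psmb9: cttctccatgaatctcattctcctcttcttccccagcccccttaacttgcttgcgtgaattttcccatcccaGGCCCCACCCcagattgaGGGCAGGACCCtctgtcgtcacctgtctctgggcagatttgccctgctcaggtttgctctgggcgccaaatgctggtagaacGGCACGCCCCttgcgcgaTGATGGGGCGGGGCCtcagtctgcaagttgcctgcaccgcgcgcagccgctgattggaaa
Psmb10: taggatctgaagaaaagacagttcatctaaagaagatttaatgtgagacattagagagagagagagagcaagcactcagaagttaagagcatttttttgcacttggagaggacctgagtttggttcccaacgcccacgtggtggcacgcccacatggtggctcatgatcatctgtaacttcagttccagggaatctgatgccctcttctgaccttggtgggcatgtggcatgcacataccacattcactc
Psmb5: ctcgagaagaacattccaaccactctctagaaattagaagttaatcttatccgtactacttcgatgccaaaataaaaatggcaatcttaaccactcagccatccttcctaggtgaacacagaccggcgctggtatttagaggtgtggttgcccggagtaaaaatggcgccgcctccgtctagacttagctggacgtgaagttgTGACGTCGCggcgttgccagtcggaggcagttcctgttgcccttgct
Psmb6: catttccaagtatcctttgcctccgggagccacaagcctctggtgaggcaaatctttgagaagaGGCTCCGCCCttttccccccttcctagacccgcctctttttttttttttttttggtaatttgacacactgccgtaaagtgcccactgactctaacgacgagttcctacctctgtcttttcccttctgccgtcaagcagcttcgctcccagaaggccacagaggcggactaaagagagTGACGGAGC

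Psmb8 held 1 match to the gamma-activated site, TTCCCAGAA, which starts 97 bases before the gene's start. Psmb9 held 5 matches to the NF-kB core, of which those at 160 and 159 bases overlap, and 1 antioxidant match that overlaps the NF-kB match at 55 bases. Psmb10 held none of the 4. Psmb5 held TGACGTCGC at 47 bases, and Psmb6 held GGCTCCGCCC at 186 bases and TGACGGAGC at 9 bases. RefSeq windows were counted for 36 member genes (38 windows), against 32851 windows of the same length over all genes. Psma8 and Psmg2 are among the members left out. The chromosome that holds them was excluded from the member windows but kept in the windows over all genes. Psmb1, Psmb2, Psmb5-ps, Psmb7, Psmc3, Psmd3 and Psmd7 also had no window counted, for a reason not given here. The member shares therefore do not cover all members, and the effect of these gaps on the shares was not tested. The interferon-stimulated core was in 7.89% of member windows and 2.98% of all, the gamma-activated site in 5.26% and 7.02%, the NF-kB core in 52.6% and 45.8%, and the antioxidant core in 36.8% and 35.2%. The interferon-stimulated matches were in Psmb3, Psmd4 and Psmd9. A match is a match of letters and was not read as a binding site.

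Array-wide facts bear on all values below. An array gave values for 13508 to 15004 of its 16281 probes, with exact zeros taken as missing. With 11593 features tested (9755 named genes and 1838 unnamed probes), the median standard error of a response was 0.112. Ratios give no level, so macrophage identity could not be checked as a level. Of the 6 macrophage markers tested, 3 rose and 1 fell with LPS at 4 h, with means from -0.94 to 1.9. Among these, Adgre1 (F4/80) rose by 0.94 ± 0.25 and Csf1r fell by 0.94 ± 0.23 (SD, n = 3). In bulk RNA, fewer cells of a type and less RNA per cell cannot be told apart. T cell, B cell and fibroblast markers gave 1 call among 13 genes over the 4 h groups, a Cd4 ratio of 0.21 ± 0.17 with LPS. At 1 h Cd4 was also called with LPS (0.37 ± 0.07), LPS+IFNG (0.49 ± 0.08) and LPS+2MA (0.37 ± 0.09), as was Cd3e with LPS+IFNG at 2 h (0.40 ± 0.13). The part of these T cell markers in the proteasome values was not tested.

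**Figure D1:**
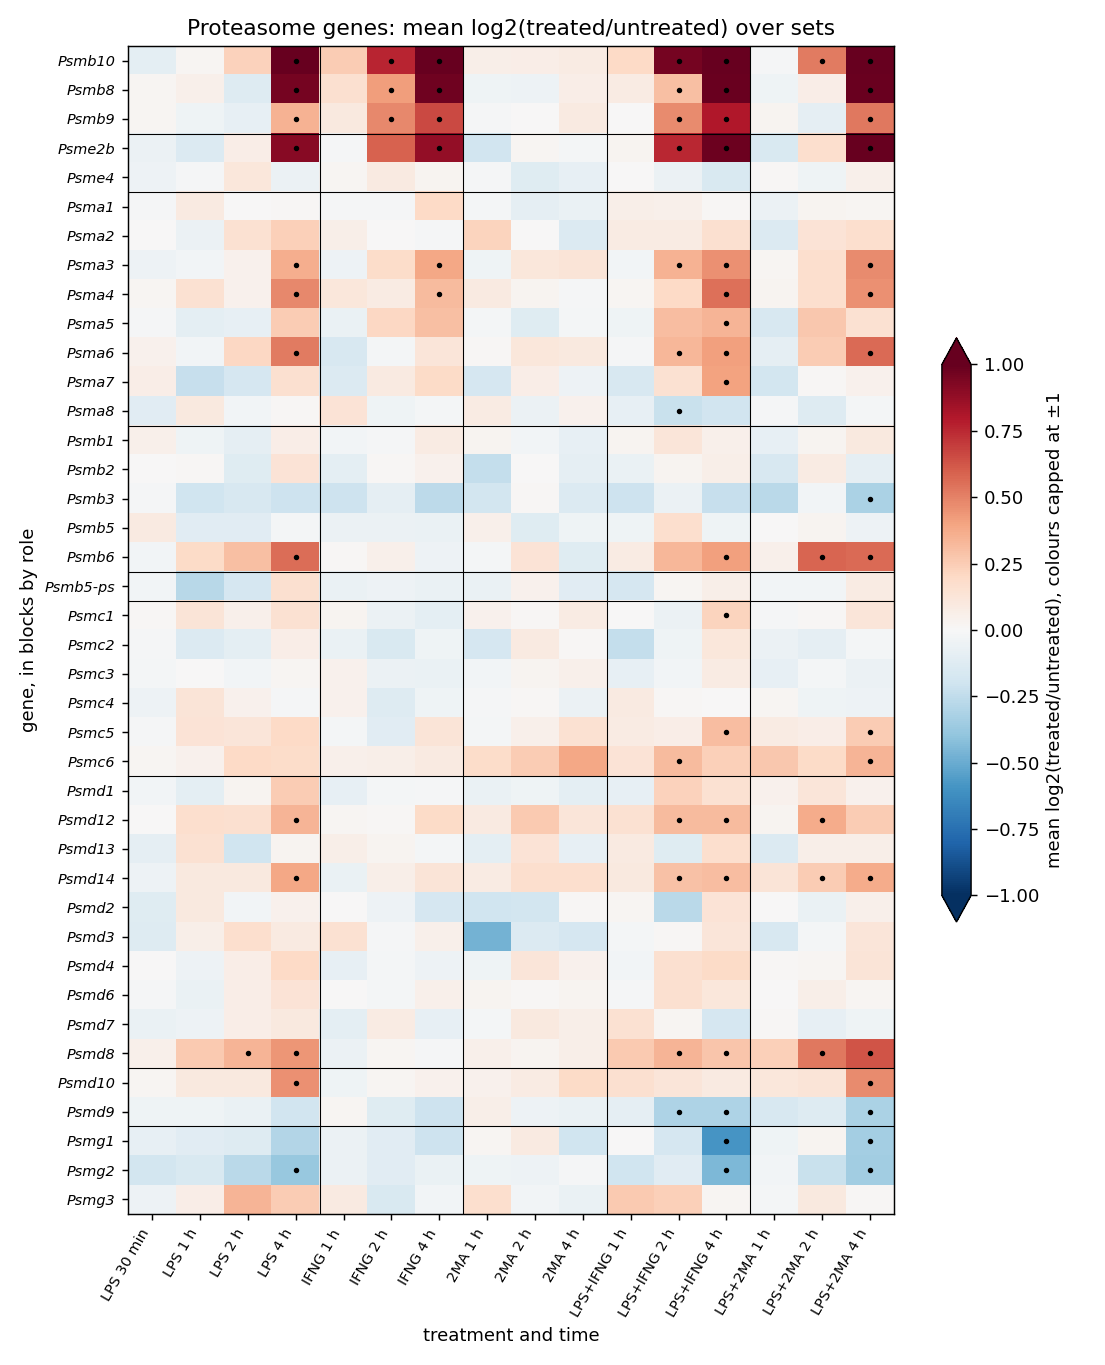
Mean log2 ratio of treated over untreated RNA for the 40 tested proteasome genes (rows, ordered by role) in the 16 treatment-time groups (columns), with colour capped at 1 either way and a dot where the adjusted p was under 0.05. Dots are absent at 30 min and 1 h and under 2MA alone. The highest means are those of Psmb10 at 4 h in the 4 groups with LPS or IFNG, from 1.59 to 1.96.

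No proteasome gene passed the test at 30 min or 1 h under any treatment, nor with 2MA alone at any time. Over all features, 1.04% were called with LPS at 30 min and 5.61% at 1 h. At 1 h the share was 1.13% with IFNG, 7.62% with LPS+IFNG and 5.45% with LPS+2MA. With 2MA alone it was 1.41%, 1.33% and 2% at 1, 2 and 4 h. Shares of all features at an unadjusted p under 0.05 are not given here or below, so counts at that cut do not set genes apart. Counts at an unadjusted p under 0.05 among the 40 genes were 0 with LPS at 30 min and 4 at 1 h. At 1 h they were 0 with IFNG, 1 with LPS+IFNG and 4 with LPS+2MA. With 2MA the unadjusted counts were 2, 3 and 3 at 1, 2 and 4 h. A limma fit of all arrays with a dye term called 1 gene with 2MA at 1 h and 1 at 4 h. That fit called 4.21% and 4.1% of all features there. For comparison, Irf1 was up by 3.45 ± 0.50 after 1 h of IFNG (adjusted p from limma under the threshold of 0.05). Irf1 is a transcription factor known to drive immunoproteasome genes, and its part in the proteasome values was not tested. Of 7 transcription factors linked to these genes, 3 rose with IFNG at 1 h.

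At 2 h between 1 and 12 members were called with the treatments other than 2MA alone. LPS gave 1 rise (Psmd8) among 40 genes, where 16% of all features were called and 7.84% rose. IFNG gave 3 rises, where 3.43% were called and 2.83% rose. LPS+IFNG gave 10 rises and 2 falls, where 20.8% were called, 9.89% as rises and 10.9% as falls. LPS+2MA gave 5 rises, where 17.8% were called and 8.57% rose. At 4 h LPS gave 12 rises and 1 fall (28.6% of all features called), IFNG 6 rises (12.3%), LPS+IFNG 15 rises and 3 falls (34%) and LPS+2MA 13 rises and 4 falls (33.4%). Rises alone were 12.7%, 6.31%, 15.2% and 14.9% of all features in these 4 groups, and falls were 15.9%, 18.8% and 18.5% in those with LPS, LPS+IFNG and LPS+2MA. The median of the 40 genes at 4 h was 0.16 with LPS, 0.01 with IFNG, 0.15 with LPS+IFNG and 0.09 with LPS+2MA, beside 0.00, -0.01, -0.01 and -0.01 over all features. In all, 22 genes were called in at least 1 group and 18 in none, and 11 were called in all 3 groups with LPS at 4 h. Matching shares over all features were not computed, so these counts do not set proteasome genes apart from others. Without set 1 LPS at 4 h gave 8 calls, IFNG at 2 h 0, LPS+IFNG at 2 h 3 and at 4 h 10, and LPS+2MA at 2 h 2. The shares of all features were lower as well without set 1, at 18.4%, 1.9%, 12.5%, 23.7% and 11.2%. The single call with LPS at 2 h was lost without set 1 or set 2, and LPS+2MA at 2 h gave 3 calls without set 2 (12.6% of all features).

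Psmb10, the immunoproteasome's trypsin-like subunit, had the highest ratio of all members at 4 h in each of the 4 groups with LPS or IFNG. With LPS its sets were at 0.15, 0.36 and 0.19 after 2 h and at 1.77, 2.11 and 1.16 after 4 h. Every 4 h set was above every 2 h set. The 4 h mean was 1.68 ± 0.48 (SD, n = 3), 3.20-fold, with an adjusted p of 8.83e-13 (limma, Benjamini-Hochberg over 11593 features), while the 2 h mean of 0.23 ± 0.11 did not pass (0.314). With IFNG the sets were at 0.41, 0.20 and 0.15 after 1 h, at 0.91, 0.96 and 0.42 after 2 h, and at 1.77, 1.88 and 1.53 after 4 h. The sets of the 3 times do not overlap. The IFNG means were 0.76 ± 0.30 at 2 h (adjusted p 0.000201, or 0.138 without set 1) and 1.73 ± 0.18 at 4 h (1.36e-12). With LPS+IFNG the sets were at 0.86, 1.32 and 0.71 after 2 h and at 1.61, 1.73 and 1.42 after 4 h, with means of 0.96 ± 0.32 (7.4e-07) and 1.59 ± 0.16 (2.71e-12). LPS+2MA gave 0.42, 0.98 and 0.15 at 2 h and 2.03, 2.21 and 1.65 at 4 h. The LPS+2MA mean of 0.52 ± 0.42 at 2 h passed (0.00593) but did not without set 1 (0.0964) or set 2 (0.209), and the 4 h mean was 1.96 ± 0.29 (7.09e-15). Psmb10 was read by 2 probes, at 1.66 and 1.69 with LPS and at 1.65 and 1.80 with IFNG at 4 h.

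Psmb8, the immunoproteasome's chymotrypsin-like subunit, rose close to 2-fold at 4 h in the same 4 groups. With LPS its sets were at -0.01, 0.02 and -0.39 after 2 h and at 1.08, 0.92 and 0.87 after 4 h, a mean of 0.96 ± 0.11 (1.94-fold, adjusted p 1.34e-11). The 2 h mean of -0.13 ± 0.22 did not pass. With IFNG all 2 h sets were already above 0, at 0.44, 0.42 and 0.41, with a mean of 0.42 ± 0.01 (0.00129, or 0.0674 without set 1). At 4 h of IFNG they were at 1.13, 0.77 and 1.02, a mean of 0.97 ± 0.19 (2.68e-11). LPS+IFNG gave 0.55, -0.01 and 0.37 at 2 h (mean 0.30 ± 0.29, 0.00943), where set 2 was near 0 and the call was lost without set 1 (0.45) or set 3 (0.127). At 4 h it gave 1.17, 0.77 and 1.03 (0.99 ± 0.21, 3.68e-12). LPS+2MA gave 0.87, 1.04 and 1.06 at 4 h (0.99 ± 0.11, 3.47e-12). The 4 h means of the 4 groups lay between 0.96 and 0.99, closer together than their sets.

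Psmb9, the immunoproteasome subunit that takes the place of Psmb6, had lower means at 4 h than Psmb8 and Psmb10 in all 4 groups. LPS gave 0.37, 0.29 and 0.38 at 4 h, a mean of 0.35 ± 0.05 whose adjusted p of 0.0442 missed the threshold whichever set was left out (0.0739, 0.0814 and 0.227 without sets 1, 2 and 3). IFNG gave 0.74, 0.30 and 0.41 at 2 h, a mean of 0.48 ± 0.23 (0.0283, or 0.3, 0.0577 and 0.24 without sets 1, 2 and 3). At 4 h of IFNG set 1 was at -0.11 while the others were at 1.12 and 0.97. Their mean of 0.66 ± 0.67 passed (0.000321), though not without set 2 (0.078) or set 3 (0.105). LPS+IFNG gave 1.10, 0.63 and 0.67 at 4 h, a mean of 0.80 ± 0.26 (4.84e-06) that passed whichever set was left out. LPS+2MA at 4 h gave 0.63, 0.48 and 0.48 (0.53 ± 0.08, 0.00146). At 2 h Psmb9 also passed with LPS+IFNG (0.56, 0.19 and 0.66, mean 0.47 ± 0.25, adjusted p 0.00733, or 0.206 without set 3).

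Psme2b, the probe of the PA28 beta subunit or its copy, followed the immunoproteasome genes. LPS sets were at 0.08, 0.38 and -0.24 after 2 h and at 0.86, 1.28 and 0.58 after 4 h, with no overlap, and the 4 h mean was 0.91 ± 0.35 (adjusted p 6.67e-05). IFNG gave 0.68, 0.77 and 0.31 at 2 h, a mean of 0.59 ± 0.24 that missed the threshold (0.0527). At 4 h of IFNG only sets 2 and 3 had values, 1.19 and 0.57, with a mean of 0.88 ± 0.44 (0.0029, or 0.112 without set 2). LPS+IFNG ranged from 0.11 (set 3) to 1.44 (set 2) at 2 h, mean 0.75 ± 0.67 (0.00117, or 0.0652 without set 1 and 0.08 without set 2). Its 4 h sets were at 1.04, 1.17 and 0.73 (0.98 ± 0.23, 1.62e-05). LPS+2MA at 4 h gave 1.03, 1.34 and 0.72 (1.03 ± 0.31, 7.43e-06). Set 2 was the highest set in all 4 of these 4 h groups.

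**Figure D2:**
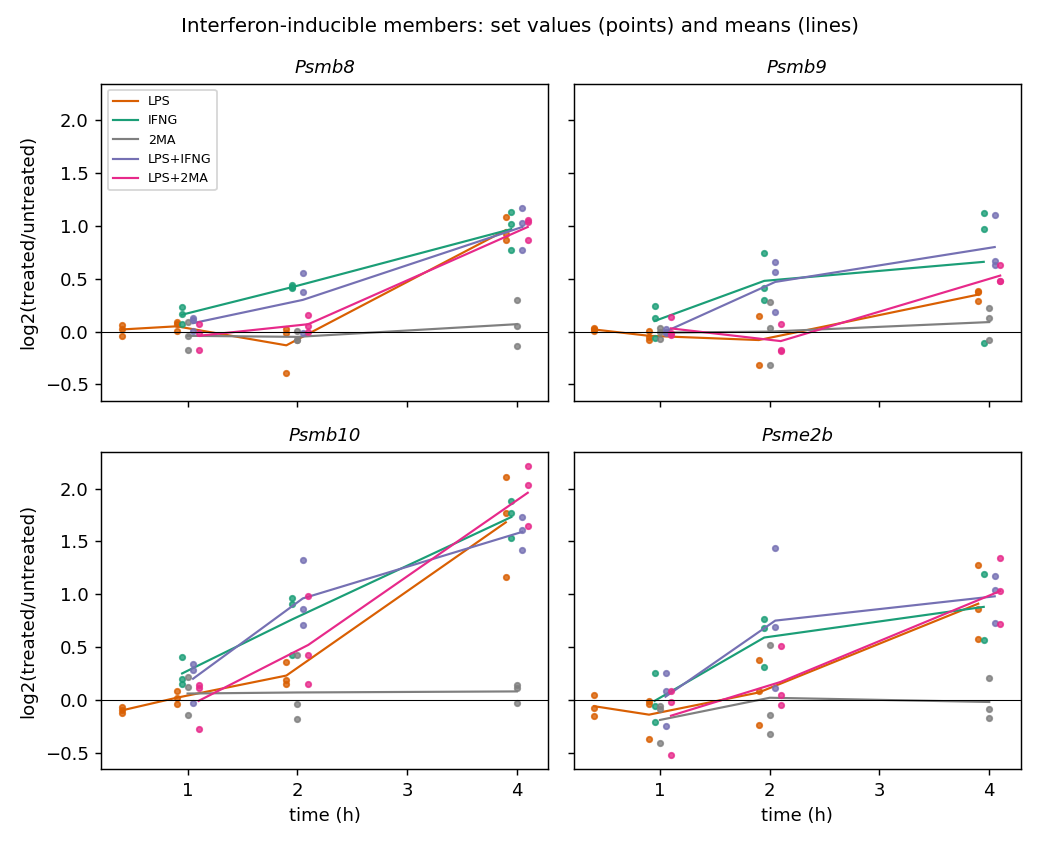
Log2 ratio of treated over untreated RNA (vertical axis) against time in h (horizontal axis, points shifted slightly by treatment) for the 4 tested interferon-inducible members, with a point for each set and a line through the means of each treatment. At 2 h the IFNG lines of all 4 members lie above those of LPS, and at 4 h LPS and IFNG means of Psmb10 stand at 1.68 and 1.73.

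The other 36 members had lower medians at 4 h, 0.14 with LPS, -0.01 with IFNG, 0.11 with LPS+IFNG and 0.06 with LPS+2MA, against 0.93, 0.93, 0.98 and 1.01 for the 4 inducible members. With LPS at 4 h the means of Psmb6 (0.56), Psma6 (0.52), Psma4 (0.48), Psmd10 (0.46) and Psmd8 (0.44) were nonetheless above that of Psmb9 (0.35). Of the 8 alpha ring genes, 3 rose with LPS at 4 h, 2 with IFNG, 5 with LPS+IFNG and 3 with LPS+2MA, and none fell. Rises over all features were 12.7%, 6.31%, 15.2% and 14.9% in these groups. Psma4 sets were at 0.61, 0.54 and 0.30 with LPS at 4 h, a mean of 0.48 ± 0.16 (adjusted p 2.19e-05). IFNG gave Psma4 0.37, 0.40 and 0.19 (mean 0.32 ± 0.11, 0.00845, or 0.179 without set 1). LPS+IFNG gave 0.64, 0.64 and 0.36 (0.55 ± 0.16, 1.89e-06). Every Psma4 set was above 0 in all of these groups. Psma3 was at 0.36 ± 0.24 with LPS, 0.39 ± 0.11 with IFNG, 0.46 ± 0.13 with LPS+IFNG and 0.47 ± 0.13 with LPS+2MA at 4 h, and each of these calls was lost without set 1 (adjusted p 0.451, 0.32, 0.091 and 0.0787). Psma6 rose in the groups with LPS, by 0.52 ± 0.10 with LPS (1.08e-05), 0.41 ± 0.11 with LPS+IFNG and 0.57 ± 0.07 with LPS+2MA. With IFNG alone Psma6 was at 0.22, 0.23 and -0.10 (0.12 ± 0.19, 0.513). At 2 h of LPS+IFNG Psma3 (0.35 ± 0.36) and Psma6 (0.33 ± 0.11) rose, and without set 1 neither did (0.24 and 0.0894), nor did Psma3 without set 3 (0.516) or Psma6 without set 2 (0.0976). Psma7 rose with LPS+IFNG at 4 h (0.36, 0.33 and 0.53, mean 0.40 ± 0.11, 0.000193) and was at 0.16 ± 0.18 with LPS and 0.19 ± 0.04 with IFNG, which did not pass. Psma5 rose with LPS+IFNG at 4 h by 0.34 ± 0.10 (0.0392, or 0.38 without set 1). Psma8, known from the testis proteasome, fell with LPS+IFNG at 2 h (-0.22, 0.0368), a call lost whichever set was left out (0.17, 0.12 and 0.144).

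Of the 5 constitutive beta ring genes tested, 1 rose with LPS at 4 h, none with IFNG, 1 with LPS+IFNG, and 1 rose and 1 fell with LPS+2MA. Psmb5 and Psmb6 were the catalytic ones among them. Over all features 12.7%, 6.31%, 15.2% and 14.9% rose in these groups, and 18.5% fell with LPS+2MA. Psmb6, whose place Psmb9 takes, had LPS values at 4 h in sets 1 and 3 only, 0.68 and 0.44, with a mean of 0.56 ± 0.17 (adjusted p 0.00505, or 0.333 without set 1). LPS+2MA gave Psmb6 0.37, 1.01 and 0.36 at 2 h and 0.56, 0.79 and 0.35 at 4 h, means of 0.58 ± 0.37 (0.000769) and 0.57 ± 0.22 (0.000474). LPS+IFNG at 4 h had 0.57 and 0.26 in sets 1 and 3, a mean of 0.41 ± 0.22 (0.0395, or 0.621 without set 1 and 0.063 without set 3). With IFNG alone Psmb6 was at -0.13, 0.20 and -0.21 (-0.05 ± 0.21, 0.892). Psmb5, whose place Psmb8 takes, was called in no group. Its 4 h means were -0.02 ± 0.03 with LPS, -0.07 ± 0.07 with IFNG, -0.04 ± 0.10 with LPS+IFNG and -0.05 ± 0.07 with LPS+2MA. Psmb3, a non-catalytic beta subunit, fell with LPS+2MA at 4 h (-0.43, -0.08 and -0.45, mean -0.32 ± 0.21, 0.039, or 0.322 without set 1 and 0.127 without set 3). Psmb1 and Psmb2 were called in no group.

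Among the 10 non-ATPase genes of the 19S cap, 3 rose with LPS at 4 h (Psmd8, Psmd12 and Psmd14), the same 3 with LPS+IFNG, and Psmd8 and Psmd14 with LPS+2MA. None was called with IFNG at 4 h. Over all features, 28.6% were called with LPS and 12.3% with IFNG at 4 h. Rises alone were 12.7% with LPS, 15.2% with LPS+IFNG and 14.9% with LPS+2MA. Psmd8, a lid subunit, had LPS sets at 0.41, 0.55 and 0.05 after 2 h and at 0.39, 0.50 and 0.44 after 4 h. Its means were 0.34 ± 0.26 (adjusted p 0.0212, or 0.286 without set 1 and 0.206 without set 2) and 0.44 ± 0.06 (0.000901). With LPS+2MA Psmd8 was at 0.53 ± 0.23 after 2 h (0.000186) and 0.63 ± 0.22 after 4 h (4.67e-06), and with IFNG at 4 h it was at -0.01 ± 0.24 (0.986). LPS+IFNG gave Psmd8 0.26, 0.34 and 0.25 at 4 h (0.28 ± 0.05, 0.0327, or 0.206 without set 1 and 0.0994 without set 2). Psmd14, the deubiquitinase of the lid, was at 0.66, 0.23 and 0.30 with LPS at 4 h (0.39 ± 0.23, 0.000114, or 0.0776 without set 1) and at 0.37 ± 0.13 with LPS+2MA (0.000251). Psmd12, another lid subunit, was at 0.52, 0.43 and 0.07 with LPS at 4 h (0.34 ± 0.24, 0.0158, or 0.382 without set 1). With LPS+IFNG at 4 h Psmd14 was at 0.31 ± 0.13 (0.0019, or 0.0571 without set 1) and Psmd12 at 0.32 ± 0.21 (0.018, or 0.432 without set 1). At 2 h of LPS+IFNG Psmd8 (0.34), Psmd12 (0.32), Psmd14 (0.29) and the ATPase gene Psmc6 (0.32) also rose, and each of these calls was lost without set 1 (0.22, 0.171, 0.0928 and 0.31). Psmd8 and Psmd12 were also lost without set 2 (0.0997 and 0.38), and Psmd14 and Psmc6 without set 3 (0.115 and 0.251). At 2 h of LPS+2MA Psmd12 had sets at 0.12, 0.87 and 0.11 (mean 0.37), and its call was lost without set 1 (0.0561) or set 2 (0.55). Psmd14 (0.25) rose there too, though not without set 1 (0.326) or set 3 (0.112). Of the 6 ATPase genes, none was called with LPS or IFNG at 4 h, Psmc1 (0.22 ± 0.04) and Psmc5 (0.31 ± 0.17) rose with LPS+IFNG, and Psmc5 (0.25 ± 0.18) and Psmc6 (0.34 ± 0.27) with LPS+2MA. These 4 ATPase calls were each lost without at least 1 set, with adjusted p up to 0.163 for Psmc1 and 0.22 for Psmc5 under LPS+IFNG and up to 0.356 for Psmc5 and 0.374 for Psmc6 under LPS+2MA, without set 1 except for Psmc5 under LPS+2MA (set 3).

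The chaperones that help assemble the particle gave 8 of the 10 falls, counted per gene and group, and these came from Psmg1, Psmg2 and Psmd9. Falls over all features were 10.9% with LPS+IFNG at 2 h. At 4 h they were 15.9% with LPS, 18.8% with LPS+IFNG and 18.5% with LPS+2MA. Psmg1, which with Psmg2 scaffolds the alpha ring, was at -0.63, -0.46 and -0.68 with LPS+IFNG at 4 h, a mean of -0.59 ± 0.12 (adjusted p 0.000162). Psmg1 was at -0.21, -0.15 and -0.53 with LPS (-0.29 ± 0.20, 0.0712), at -0.21 ± 0.18 with IFNG (0.348) and at -0.34 ± 0.11 with LPS+2MA (0.0269, or 0.218 without set 1 and 0.178 without set 3). Psmg2 fell in all 3 groups with LPS at 4 h, with means of -0.38 ± 0.30 with LPS, -0.45 ± 0.12 with LPS+IFNG and -0.35 ± 0.29 with LPS+2MA. Without set 2, which was the lowest in each, these calls were lost (0.357, 0.058 and 0.248), the last also without set 3 (0.193). Psmg3 was called nowhere. Psmd9, a chaperone of the 19S base, was at -0.24, -0.30 and -0.40 with LPS+IFNG at 4 h (-0.31 ± 0.08, 0.00171) and at -0.31 ± 0.25 at 2 h (0.00336, or 0.247 without set 2). LPS+2MA gave Psmd9 -0.32 ± 0.17 at 4 h (0.00119, or 0.066 without set 1). Psmd10 (gankyrin), a base chaperone also known as an oncoprotein, rose instead, with sets at 0.51, 0.61 and 0.26 under LPS (0.46 ± 0.18, 6.16e-05) and a mean of 0.47 ± 0.15 under LPS+2MA, and was at 0.09 ± 0.07 with LPS+IFNG (0.497). The 2 probes of Psmd10 disagree, at 0.79 and 0.12 with LPS at 4 h and at 0.73 and 0.21 with LPS+2MA. With LPS+IFNG they had opposite signs, at 0.43 and -0.24, so the gene's mean there averages probes that go both ways. Psme4, the large PA200 activator, was called nowhere, and its 4 h means lay from -0.15 ± 0.18 with LPS+IFNG to 0.05 ± 0.34 with LPS+2MA.

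**Figure D3:**
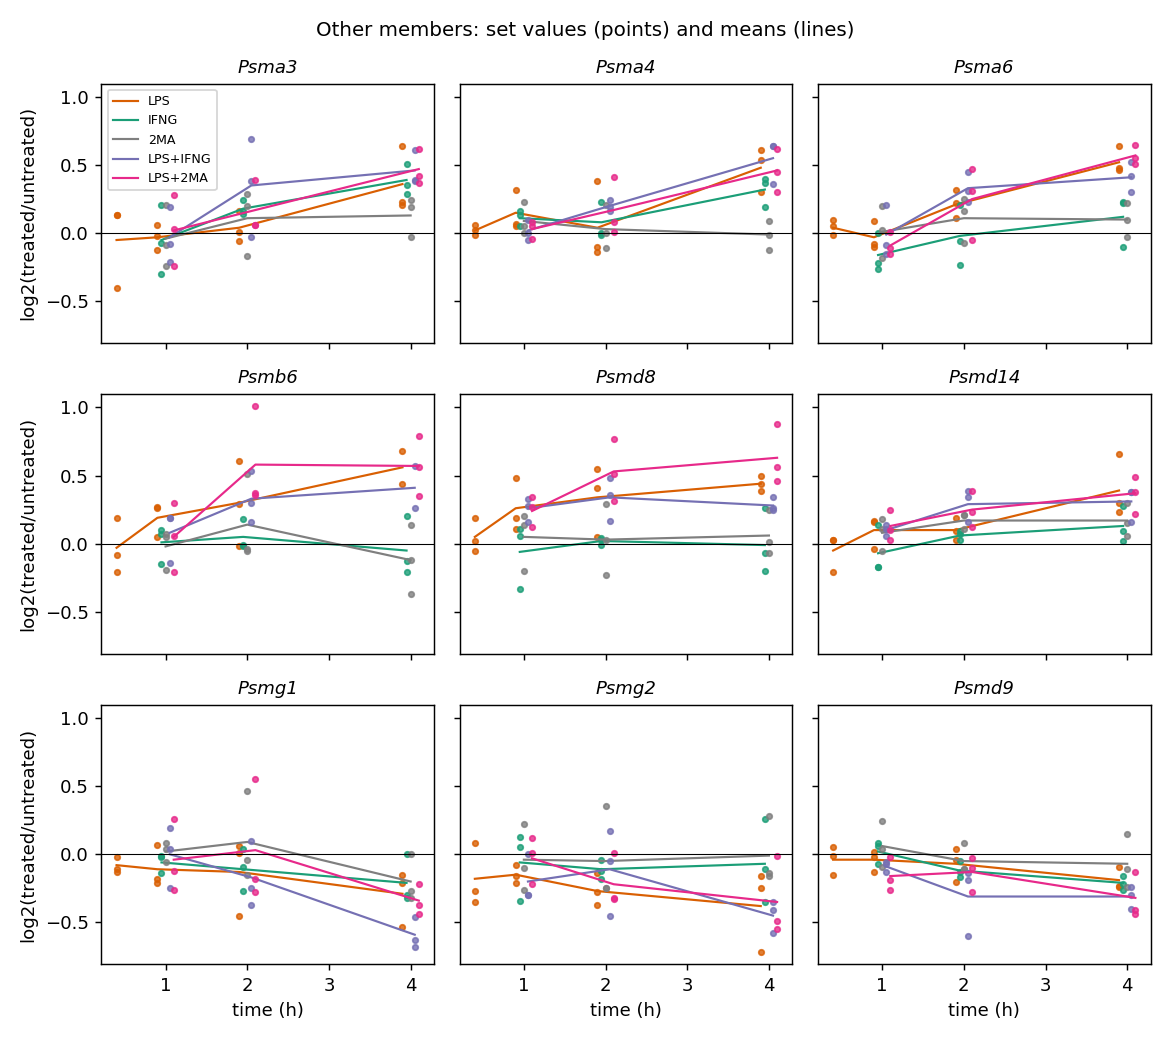
Log2 ratio of treated over untreated RNA (vertical axis) against time in h (horizontal axis, points shifted slightly by treatment) for 9 members other than the inducible ones, with a point for each set and a line through the means of each treatment. At 4 h Psma4 and Psma6 lie above 0 in every set of the groups with LPS, and Psmg1 lies below 0 in every set of LPS+IFNG.

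The 18 members called in no group were Psma1, Psma2, Psmb1, Psmb2, Psmb5, Psmb5-ps, Psmc2, Psmc3, Psmc4, Psmd1, Psmd2, Psmd3, Psmd4, Psmd6, Psmd7, Psmd13, Psme4 and Psmg3. At 4 h they lay from -0.06 (Psme4) to 0.25 (Psmd1) with LPS, with a median of 0.08, and from -0.17 (Psmd2) to 0.20 (Psma1) with IFNG, with a median of -0.02. Their range with LPS+IFNG at 4 h ran from -0.17 (Psmd7) to 0.19 (Psmd4). The farthest of them from 0 in any group was Psmd3 with 2MA at 1 h, at -0.47 ± 0.15. As a description over the 16 group means, which share sets and may share untreated RNA, the members most like Psmb10 were Psmb8 and Psme2b (Pearson's r 0.97 each), Psma3 (0.93), Psma4 (0.91), Psmb9 (0.86) and Psma5 (0.81). The least alike were Psmd9 (-0.81), Psmg1 (-0.75) and Psmg2 (-0.61).

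The LPS response differed over its 4 times for 8 members by limma's F test, where 16.7% of all features were called. They were Psmb10 (adjusted p 3.46e-09), Psmb8 (1.17e-08), Psme2b (0.00423), Psma6 (0.00458), Psma4 (0.0143), Psmd14 (0.0211), Psmd10 (0.0331) and Psma7 (0.0453). Psmb8 and Psmb10 passed whichever set was left out. The count was 2 without set 1, 4 without set 2 and 4 without set 3. The shares of all features called were lower as well, at 6.81%, 12.2% and 13.3%.

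The comparison of LPS+IFNG with LPS asks what IFNG adds. At 2 h Psmb10 was higher by 0.73 ± 0.20 (SE) (adjusted p 0.03) and Psmb8 by 0.43 ± 0.12 (0.0486), the only 2 calls among 40 members, where 2.74% of all features were called and 2.04% were higher. With the set number as a block both passed (7.42e-05 and 0.0154) and Psme2b was added, higher by 0.67 (0.188 without the block, 7.36e-05 with it), where the block called 6.32% of all features. Neither call survived loss of set 1 (0.468 for Psmb10 and 0.564 for Psmb8), and Psmb10 was also lost without set 2 (0.133) and Psmb8 without set 3 (0.754). With a single probe per gene their adjusted p was 0.0973 and 0.0557. Psmb8 had 1 probe, so its own values were the same in that fit and only those of other genes changed. Psmb9 was higher by 0.55 ± 0.21 and did not pass (0.214). At 1 h and 4 h no member was called (1.01% and 4.15% of all features), and at an unadjusted p under 0.05 there were 0 and 2. The 4 h differences were -0.09 for Psmb10 (95% interval -0.49 to 0.31), 0.03 for Psmb8 (-0.22 to 0.28), 0.07 for Psme2b (-0.43 to 0.57) and 0.45 for Psmb9 (0.07 to 0.83, adjusted p 0.252). The block called 1 gene at 4 h, Psmd10, lower by 0.37 (0.0168), and 8.61% of all features.

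The comparison of LPS+IFNG with IFNG asks what LPS adds. No member was called at 1 h or 2 h (2.52% and 8.01% of all features), and at an unadjusted p under 0.05 there were 1 and 4. At 4 h 1 was called (11.1%, with 5.92% higher), Psmc1, higher by 0.32 (0.0314, and lost whichever set was left out, at 0.351, 0.186 and 0.0972). With the set number as a block 2 members were called at 2 h, Psma6 (0.35, adjusted p 0.023) and Psmd8 (0.32, 0.0182), and 6 at 4 h, where the block called 14.4% and 19.2% of all features. The 6 were Psma4 (0.23, 0.0366), Psmb6 (0.46, 0.000382), Psmd8 (0.29, 0.0283), Psmc1, Psmd4 and Psmg1, the last lower (-0.38, 0.0158). None of the 6 is an inducible member. The inducible members differed from IFNG alone at 4 h by -0.14 for Psmb10 (-0.54 to 0.26), 0.02 for Psmb8 (-0.23 to 0.27), 0.09 for Psme2b (-0.47 to 0.66) and 0.14 for Psmb9 (-0.24 to 0.52).

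The joint response was also set against the sum of the single ones on the log2 scale. At 4 h Psmb10 stood at 1.59 with LPS+IFNG against a sum of 3.41, a difference of -1.82 ± 0.24 (SE) (adjusted p 2.28e-06). Psmb8 stood at 0.99 against 1.93, a difference of -0.94 ± 0.15 (6.58e-05). These were the 2 calls among 40 members, where 2.71% of all features were called and 1.86% were below the sum, and both passed whichever set was left out. Psme2b stood at 0.98 against 1.80, which missed the threshold (-0.82 ± 0.33, 0.286) and passed with the set number as a block (0.000365). The block called 4 members, also Psmd10 (-0.40, 0.0499), and 5.71% of all features. The block does not remove error of untreated RNA that LPS and IFNG arrays may share, so its p-values for a sum can be too small. Psmb9 stood at 0.80 against 1.01, with a difference from its sum of -0.21 ± 0.23 (95% interval -0.68 to 0.26). At 1 h and 2 h no member was called (0.0776% and 0.371% of all features), and 1 member had an unadjusted p under 0.05 at each time. At 2 h the differences of the inducible members lay between -0.03 (Psmb10, interval -0.52 to 0.45) and 0.09 (Psme2b).

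**Figure D4:**
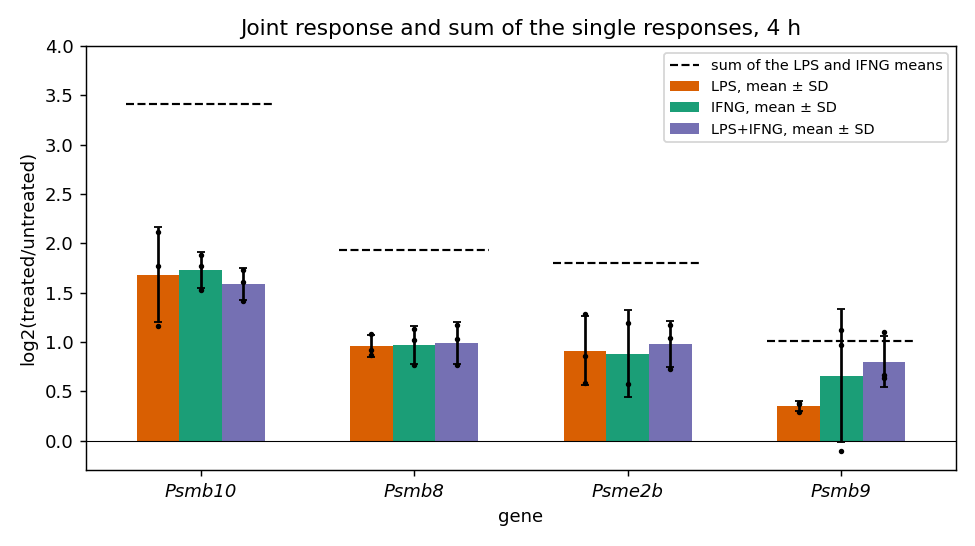
Mean log2 ratio at 4 h of the 4 inducible members with LPS, IFNG and LPS+IFNG (bars) beside the sum of the LPS and IFNG means (dashed lines), with set values as points and SD as error bars. For Psmb10 the joint mean is 1.59 and the sum 3.41, and for Psmb8 they are 0.99 and 1.93.

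Addition of 2MA to LPS gave no call among the 40 members at 1, 2 or 4 h (0.0776%, 0.0949% and 0.354% of all features), and no member had an unadjusted p under 0.05. The block called none either. At 4 h the difference from LPS was 0.28 ± 0.20 for Psmb10 (95% interval -0.11 to 0.68), 0.04 for Psmb8 (-0.21 to 0.29), 0.18 for Psmb9 (-0.20 to 0.56) and 0.12 for Psme2b (-0.38 to 0.62). A p that misses the threshold does not show that LPS and LPS+2MA act alike.

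Other genes of antigen processing and protein turnover are given for comparison by count, where 28.6%, 12.3%, 34% and 33.4% of all features were called at 4 h with LPS, IFNG, LPS+IFNG and LPS+2MA. Of 10 genes that load peptides on MHC class I, 8 rose at 4 h with each of LPS, IFNG, LPS+IFNG and LPS+2MA. Tap1, the peptide transporter subunit whose gene neighbours Psmb9, was at 0.40 ± 0.62 with LPS after 2 h (not called) and 2.12 ± 0.44 after 4 h, and at 0.70 ± 0.27 with IFNG after 1 h and 2.21 ± 0.13 after 4 h. Tapbp (tapasin), which bridges the transporter to class I, rose with LPS at 2 h (0.69 ± 0.53), and B2m, the class I light chain, rose by 0.65 ± 0.30 at 4 h. Of 12 proteasome-associated genes, 2 rose and 2 fell with LPS at 4 h, 1 rose with IFNG, 2 rose and 2 fell with LPS+IFNG, and 2 rose and 3 fell with LPS+2MA. Pomp, the maturation factor of the 20S core, was the rise shared by these 4 groups, at 0.46 ± 0.22, 0.52 ± 0.23, 0.45 ± 0.15 and 0.40 ± 0.09. Of 6 cytosolic peptidases, Lap3, a leucine aminopeptidase, rose in all 4 groups, by 0.56 ± 0.16 with LPS and 1.23 ± 0.24 with IFNG, and Nln (neurolysin) fell in those with LPS. Of 7 transcription factors linked to these genes, 6 rose with LPS at 4 h, 4 with IFNG, 7 with LPS+IFNG and 7 with LPS+2MA. Of 7 genes of the cytosolic chaperonin, another large complex, none was called with LPS or IFNG at 4 h, where 2 and 0 had an unadjusted p under 0.05, and 1 with each pair of ligands. Nfe2l1, known to drive constitutive proteasome genes when the particle is inhibited, was at 0.10 ± 0.03 with LPS at 4 h and rose with LPS+2MA (0.41 ± 0.03). Of 6 macrophage markers, 3 rose and 1 fell with LPS at 4 h, 1 rose with IFNG, 4 rose and 1 fell with LPS+IFNG, and 3 rose and 1 fell with LPS+2MA, and their part in the proteasome values was not tested.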

How the data were processed

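Deposited log2 ratios of 96 arrays were used, read as Cy5 over Cy3 with channel roles per the labels. Image analysis, background correction and normalisation are not given in the sources used here. How the authors centred the deposited log2 values stays unknown: each array's median is 0 with zeros and from -0.0183 to 0.0442 without. The largest value is 6.643856. Per-sample columns not used number 0.

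Exact zeros (1277 to 2773 per array) were set to missing, and 753 probes were at 0 on every array. The sign was turned for arrays whose Cy3 channel held treated RNA, which gave log2 of treated over untreated. A set value needed both orientations, and testing needed at least 2 of 3 sets in every group (13698 probes kept, 2583 not). Probes of 1 gene were averaged. Names came from the platform annotation updated through the RefSeq gene table (13738 probes with 1 gene, 52 with several, 2491 with none here).

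limma 3.58.1 in R 4.3.3 fitted 1 mean per group with empirical Bayes moderation over the 48 set values (32 residual and 5.887 prior degrees of freedom, median residual SD 0.196). Tests were two-sided, adjusted by Benjamini-Hochberg over 11593 features, with a threshold of 0.05. Plots used matplotlib 3.10.9 in Python 3.11.15. Where a set had no value the gene's mean rests on 2 sets. All genes matching the symbol rule could be named, and genes of the comparison lists as examples. Members and lists were chosen with earlier results of these data known.

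Same-numbered sets were checked for pairing by the correlation, across features, of their deviations from group means. It was above 0.1 in every pair for LPS+IFNG against LPS (0.175 to 0.706), LPS+IFNG against IFNG (0.109 to 0.63) and LPS+2MA against LPS (0.119 to 0.73). Between LPS and IFNG at 2 h it fell to -0.0316, and between LPS times it ran from -0.301 to 0.42. Alternatives were zeros kept as 0, arrays centred on their nonzero median, a looser probe filter, a single probe per gene, all arrays with a dye term (set correlation 0.247), the set number as a block, and each set left out. Genome coordinates were used for promoters only.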

Additional observations from a re-analysis of the deposited data

Results flagged for a closer look

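The response to LPS differed between its 4 times, by limma's F test adjusted over all features, for Psmb10 (adjusted p 3.46e-09), Psmb8 (1.17e-08), Psme2b (0.00423), Psma6 (0.00458), Psma4 (0.0143), Psmd14 (0.0211), Psmd10 (0.0331) and Psma7 (0.0453). These are 8 of 40 members, where 16.7% of all features were called. Only Psmb8 and Psmb10 passed whichever set was left out, and Psmd14, Psmd10 and Psma7 were lost whichever set was left out. The means of Psmb10 were -0.10, 0.02, 0.23 and 1.68 at 30 min, 1 h, 2 h and 4 h, and those of Psmb8 0.02, 0.05, -0.13 and 0.96. The joint response to LPS+IFNG at 4 h lay below the sum of the single responses for Psmb10 (-1.82) and Psmb8 (-0.94). Groups of 3 sets were too small for a check of single sets that stand apart.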

How the results depend on the processing

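Of 88 member results called, 88 kept their call with zeros kept as 0, 87 with arrays centred, 87 with the looser filter, 83 with a single probe per gene and 84 with the dye term, and no result reversed. Without set 1, 43 kept it, without set 2, 64, and without set 3, 65. The set number as a block kept all 13 it could be applied to. Shares of all features called in the same fit follow in brackets. With the dye term 2 members were called with LPS at 2 h (18.4%) and 1 with 2MA at 1 h (4.21%). It called 1 with 2MA at 4 h (4.1%) and 2 for LPS+IFNG minus IFNG at 4 h (13.6%). For LPS+IFNG minus LPS at 2 h the count was 1 with the looser filter (2.6%) and 0 with a single probe (2.54%). For LPS+IFNG minus IFNG at 4 h it was 0 with a single probe (10.4%). With the replicate block the count was 1 for LPS+IFNG minus LPS at 4 h (8.61%). The block gave 2 for LPS+IFNG minus IFNG at 2 h (14.4%) and 6 at 4 h (19.2%). For LPS+IFNG minus the sum at 4 h it gave 4 (5.71%). The block did not end any call.

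With each set left out in turn, counts for LPS ranged from 0 to 2 at 2 h and 8 to 13 at 4 h. The shares of all features called were 8.62% to 14.3% and 18.4% to 25.7%, and shares follow in brackets below. IFNG gave 0 to 3 at 2 h (1.9% to 2.7%) and 4 to 6 at 4 h (7.12% to 11.8%). LPS+IFNG gave 3 to 8 at 2 h (12.5% to 22.5%) and 10 to 16 at 4 h (23.7% to 33.4%). LPS+2MA gave 2 to 6 at 2 h (11.2% to 14.8%) and 12 to 16 at 4 h (23.9% to 30.4%). Counts ranged from 0 to 1 for LPS+IFNG minus LPS at 2 h (1.06% to 1.72%). The range was also 0 to 1 for LPS+IFNG minus IFNG at 4 h (3.64% to 8.37%). It was 2 to 4 for the LPS times (6.81% to 13.3%), and the count stayed at 2 for the sum at 4 h (1.01% to 2.32%). Where leaving out a set left a group with 1 set for a gene, that set was assumed to vary like those of the other groups. Fewer sets give each test fewer degrees of freedom. Fewer calls were kept without set 1 (43) than without set 2 (64) or set 3 (65). In each comparison of this paragraph the share of all features called was lowest without set 1 as well. The cause of this difference between sets was not tested. The number of arrays limits the precision, and signal over background was not used here.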
